A study of Drosophila melanogaster with 3 samples.

Results

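The regions described here were the intronic binding sites of Ets65A that lay away from promoters in whole Drosophila melanogaster embryos. A peak of the authors' IDR list (peaks that passed a test of reproducibility between replicates) was a member when its summit lay more than 500 bp from every coding transcription start site (TSS, the start of a transcript of a protein-coding gene), inside a gene and in no exon. There were 742 members among 2780 IDR peaks, 26.7% (95% Wilson interval 25.1 to 28.4%). The others were 1642 promoter peaks, 313 intergenic peaks and 83 exonic peaks. The single group of the study was chromatin from 0 to 24 h embryos of mixed sex, strain ets3-GFP, a stable transgenic line with GFP fused to the C-terminus of Ets65A. It had 3 biological replicates, precipitated with an anti-GFP antibody according to the description, although the antibody field names Ets65A. No embryos without the fusion were among the samples, so specificity could not be set against such a group, and signal from whole embryos averages over all their cells.

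Ets65A belongs to the ETS transcription factors, which share a DNA-binding domain that contacts a GGAA core, and in flies its isoforms are known for roles in the nervous system. Introns of developmental genes often hold enhancers, stretches of DNA to which transcription factors bind and which act on a promoter some distance away. First introns in particular are often long and lie next to the promoter.

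Windows of 201 bp centred on the summit are shown for the 5 members of highest signal, since they are the strongest sites of the class in all 3 replicates. They are the plus strand of dm6, written 5′ to 3′. Capitals mark the 10 6-mers, read on either strand, whose frequency at member summits was highest relative to their flanks. By that ratio of centre to flank they are AGGGTA (3.14), AATAGT (3.11), ACTGTA (3.06), GTACAC (2.87), ACAGTG (2.80), AGGTAC (2.80), GTTACA (2.75), ACCCTA (2.73), AGTACT (2.73) and ACACTG (2.65), described with the motifs. The windows lie at chr2L:480979-481179 in ush, chr2L:6612609-6612809 in CG11050, chr3R:11760953-11761153 in Lk6, chrX:4910275-4910475 in CG32772 and chr2L:3302091-3302291 in CG9663.
ush: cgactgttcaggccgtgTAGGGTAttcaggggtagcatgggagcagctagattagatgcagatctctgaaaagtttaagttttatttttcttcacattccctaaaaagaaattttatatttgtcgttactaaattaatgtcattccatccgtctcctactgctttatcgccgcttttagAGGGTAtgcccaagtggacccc
CG11050: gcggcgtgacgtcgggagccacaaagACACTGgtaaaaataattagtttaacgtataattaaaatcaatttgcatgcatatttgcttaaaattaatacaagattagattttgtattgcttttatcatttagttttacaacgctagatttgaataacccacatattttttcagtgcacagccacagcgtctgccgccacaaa
Lk6: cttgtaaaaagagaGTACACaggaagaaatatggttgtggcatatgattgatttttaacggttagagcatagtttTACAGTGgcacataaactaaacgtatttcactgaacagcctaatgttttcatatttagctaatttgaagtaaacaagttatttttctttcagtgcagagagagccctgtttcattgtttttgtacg
CG32772: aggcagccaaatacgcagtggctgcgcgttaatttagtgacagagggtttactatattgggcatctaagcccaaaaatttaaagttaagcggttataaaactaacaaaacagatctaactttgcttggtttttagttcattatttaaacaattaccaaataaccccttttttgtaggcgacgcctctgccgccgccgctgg
CG9663: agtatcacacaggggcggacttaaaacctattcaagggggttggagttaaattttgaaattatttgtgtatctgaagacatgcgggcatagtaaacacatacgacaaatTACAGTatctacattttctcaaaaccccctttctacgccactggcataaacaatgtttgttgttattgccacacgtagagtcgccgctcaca
Between 0 and 3 of the 10 6-mers occurred per window. Lk6 held 3 of them, ACTGTA and ACAGTG overlapping as one run, while CG32772 held none. The window of CG11050 is longer than its host intron of 140 bp, so it also holds exon bases. Its marked ACACTG stands directly before a stretch of 140 bp that starts with gt and ends with ag, and may lie in the exon. The window of ush held 2 sites with the letters GGAA on either strand and Lk6 held 1, and those of CG11050, CG32772 and CG9663 held 0.

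The strongest member in each of the 3 host genes with most members is shown in the same way, because several members share each of these genes. They lie at chrX:1963836-1964036 in Hr4, chrX:2297629-2297829 in Raf and chrX:7698371-7698571 in CHES-1-like.
Hr4: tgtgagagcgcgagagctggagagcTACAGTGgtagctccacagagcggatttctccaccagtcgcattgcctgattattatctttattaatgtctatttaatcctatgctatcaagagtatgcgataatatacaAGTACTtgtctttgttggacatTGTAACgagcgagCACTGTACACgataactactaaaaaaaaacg
Raf: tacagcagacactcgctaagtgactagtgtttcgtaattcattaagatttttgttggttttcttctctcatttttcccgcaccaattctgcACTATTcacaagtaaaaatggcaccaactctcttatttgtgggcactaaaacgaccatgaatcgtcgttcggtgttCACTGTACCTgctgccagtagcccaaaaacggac
CHES-1-like: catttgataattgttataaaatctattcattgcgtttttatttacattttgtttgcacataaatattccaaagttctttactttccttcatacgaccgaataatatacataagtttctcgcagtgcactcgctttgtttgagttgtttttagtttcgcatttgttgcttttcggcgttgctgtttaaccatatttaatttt
The Hr4 window held 5 of the 10 6-mers and the Raf window held 4, each with a run in which ACTGTA and ACAGTG overlap. The CHES-1-like window held none of them, had a GC content of 29.9% and held 2 sites with the letters GGAA.

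The strongest member lay in the first intron of ush, which encodes a zinc finger cofactor of GATA factors and whose start site is 4859 bp away. Its signal value, the authors' score of peak strength on an unstated scale, was 1293 in the IDR list, the value at rank 3 of all 2780 peaks. The overlapping peaks of replicates 1, 2 and 3 had signal values of 385, 522 and 391. The nearest start site, 1391 bp away, belonged to cbt, a gene for a zinc finger transcription factor, and lies within the span of ush. The second member lay in an intron of 140 bp of CG11050, the shortest intron that held any member, with signal values of 259, 437 and 374 in replicates 1, 2 and 3. Lk6, a kinase downstream of MAP kinase signalling, followed with 270.3, 360.1 and 281 for a site in its first intron. CG32772 had 254, 348 and 254 in its second intron, and CG9663, an ABC transporter gene, 209, 269.5 and 236 in its first. The next 7 members by signal lay in Adf1, Tlk, HmgZ, CG32486, Reph, LPCAT and Raf, with IDR signal values between 439.6 and 628. They include a transcription factor (Adf1), a chromatin-associated kinase (Tlk), an HMG-box protein (HmgZ) and the kinase that passes Ras signals to the MAP kinase cascade (Raf). Each of the 12 members was among the 2780 strongest peaks in each of the 3 replicates.

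**Figure D1:**
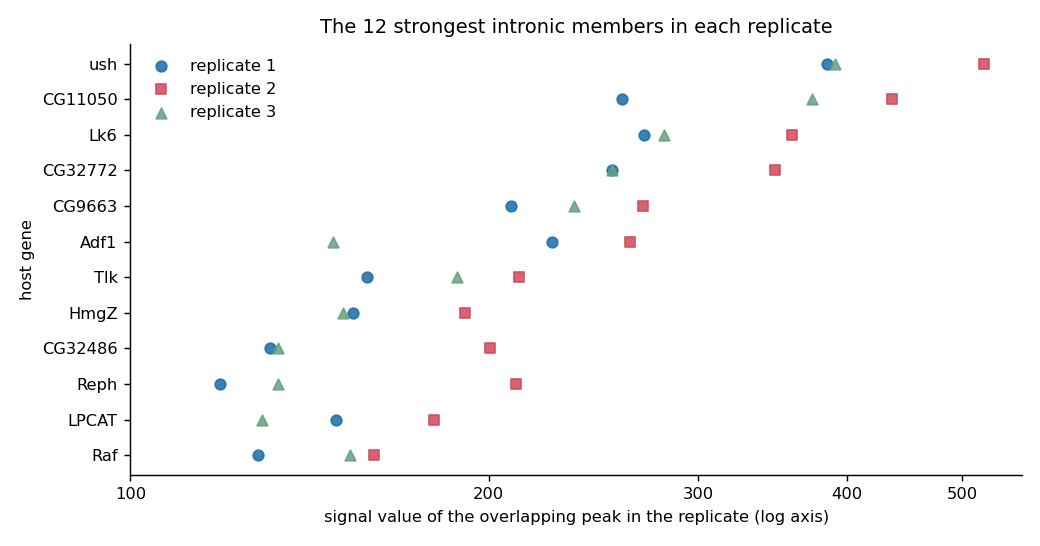
Signal values (log axis) of the peaks that overlap the 12 strongest members in replicates 1, 2 and 3, by host gene in order of the IDR list's signal. The ush site, at 385 to 522, stood above every other member in each replicate, and the signal scale differed between the replicate lists.

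Over all 742 members the signal value had a lowest value of 71.82, a median of 107.7, quartiles of 85.51 and 148.6 and a highest value of 1293. The median was 108 for members, against 112 for promoter peaks and 105 for intergenic peaks. The deposited -log10 q stood at the ceiling of the list for 667 members (89.9%), so it could not rank them. The members just inside the distance rule were those in heph, rols and Eip63F-1 at 502, 505 and 506 bp from a coding TSS, and peaks in Pitslre, kuk and CG5065 at 500, 492 and 489 bp fell just outside. The 3 weakest members, in Bx, raskol and CG32795, had signal values of 71.82 to 71.83. The strongest intronic peaks of the pooled list that were not in the IDR list, in Pvf3, hth and hng3, had 71.80, 71.75 and 71.74.

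Members were denser in introns than intergenic peaks were between genes. The 6 chromosome arms held 53.4 Mb of eligible intronic DNA (in a gene, in no exon and more than 500 bp from a coding TSS), with 13.9 members per Mb, against 8.40 intergenic peaks per Mb of 37.3 Mb of eligible intergenic DNA. The ratio was 1.65. Among the 2780 strongest peaks of replicates 1, 2 and 3 taken alone it was 1.44, 1.64 and 1.81. These densities are descriptions, with exact Poisson intervals that cover counting error over peaks only.

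First introns held 426 members, 57.4% (53.8 to 60.9%), while they made up 32.3% of the eligible intronic DNA. The density fell with intron number, from 24.7 members per Mb (22.4 to 27.1) in first introns to 14.4 (12.5 to 16.6) in second, 7.40 (5.44 to 9.84) in intron 3 and 4.11 (3.16 to 5.24) in later introns. The intervals of neighbouring classes did not overlap. The share in first introns was 54.0%, 57.7% and 57.2% among the strongest intronic peaks of replicates 1, 2 and 3. Each site was numbered in 1 transcript of its host. That was the canonical one where one of its introns held the site, else the longest with such an intron. Eligible DNA was numbered in the same way. Sites of 1 gene could therefore be numbered in different transcripts, and first introns of transcripts that start inside a gene are counted. In Tlk, sites 22230 to 30669 bp from the 5′ end count as intron 2, and those at 53499 and 54482 bp as intron 1. A member lay in the first intron of at least 1 transcript in 73.0% of cases, and in the first intron of the transcript with most exons in 48.1%, so this share depends on the transcript taken.

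Density also fell with distance from the nearest coding TSS. It was 41.3 members per Mb at 501 to 1000 bp, then 25.5 at 1001 to 2000 bp, 16.3 at 2001 to 5000 bp, 10.9 at 5001 to 10000 bp and 5.01 beyond. Intergenic peaks fell in the same bins as 26.8, 19.2, 10.2, 7.27 and 3.64 per Mb, and the intervals of both classes overlapped in the bins of 1001 to 2000 bp, 5001 to 10000 bp and over 10000 bp. In every bin first introns held more members per Mb than later introns, with 51.8 against 27.3 nearest the TSS and 10.4 against 3.90 beyond 10000 bp. The median member lay 2455 bp from a coding TSS, the farthest 42306 bp, and 219 members (29.5%) lay over 5000 bp away. The nearest coding TSS was one of the host gene's own for 592 members (79.8%), and 22 members lay within 500 bp of the TSS of a non-coding gene.

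**Figure D2:**
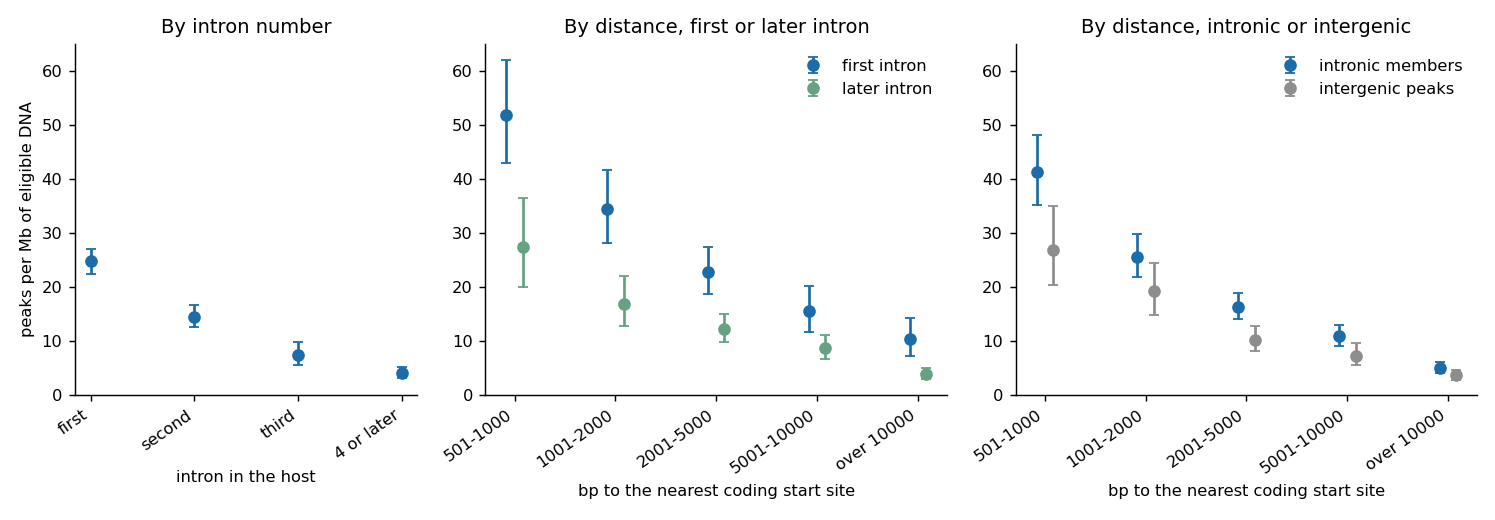
Peaks per Mb of eligible DNA, with exact 95% Poisson intervals as error bars, by the number of the intron, by distance to the nearest coding TSS in first and later introns, and by the same distance for intronic members and intergenic peaks. Members in first introns stood at 51.8 per Mb at 501 to 1000 bp, against 27.3 in later introns, and both fell with distance.

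Members lay in introns of 140 to 126467 bp, with a median of 10710 bp. Introns of 1000 to 4999 bp held 20.8 members per Mb (17.9 to 24.0) and those of 5000 to 19999 bp 16.9 (15.1 to 18.9). Introns under 1000 bp held 7.92 (5.52 to 11.0) and those of 50000 bp or more 6.42 (4.89 to 8.28). Within their introns, 442 members (59.6%) lay on the 5′ side of the midpoint, where 50.8% of the eligible DNA was. Relative to exons, density was highest 501 to 1000 bp from the nearest annotated exon, with 25.1 members per Mb (21.5 to 29.1). It was 5.26 per Mb (3.37 to 7.83) within 100 bp of an exon and 6.86 (5.53 to 8.40) beyond 5000 bp.

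The X chromosome held more members for its intronic DNA than the arms of chromosomes 2 and 3. Its 200 members gave 19.5 per Mb (16.9 to 22.4), against 541 members and 12.7 per Mb (11.7 to 13.8) on those arms. The strongest intronic peaks of replicates 1, 2 and 3 gave 19.3, 18.9 and 18.8 per Mb on X, against 13.2, 12.8 and 13.0 on chromosomes 2 and 3. X was the denser in each of the 5 distance bins, with 46.2 against 40.4 per Mb at 501 to 1000 bp and 8.09 against 4.41 beyond 10000 bp, though the intervals were apart at 1001 to 2000 bp (37.6 against 22.8 per Mb) and overlapped in the other bins. Intergenic peaks had 8.48 per Mb on X and 8.29 on chromosomes 2 and 3. Chromosome 4 held 1 member. The embryos were of mixed sex, and the number of X chromosomes in the chromatin and in the control was not measured here.

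The 742 members lay in 520 host genes, 507 of them protein-coding, and 14 members had a non-coding host. For 59 members the summit lay in more than 1 gene, and the host taken was a protein-coding gene before others and then the shorter one. A single member was found in 390 hosts, 2 members in 78, 3 members in 35, and 4 to 8 members in 17 others (5 with 4, 5 with 5, 4 with 6, 2 with 7 and 1 with 8). The 130 hosts with 2 or more held 352 members, 47.4% of all. Among the 520, 460 and 507 members that were in the strongest lists of both other replicates when replicates 1, 2 and 3 were left out in turn, 78, 64 and 76 hosts had 2 or more. Of 9024 protein-coding genes with any eligible intronic DNA, 5.62% hosted a member. That share was 0.338% for genes with under 1000 bp of such DNA, 7.09% for 1000 to 4999 bp, 16.3% for 5000 to 19999 bp, 24.8% for 20000 to 49999 bp and 37.4% for 50000 bp or more.

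Hr4, a nuclear receptor of the ecdysone response, had most members, 8, with signal values from 72.7 to 269. They were spread over 1910 to 42415 bp from the gene's 5′ end, in its introns 2 to 5. Raf and CHES-1-like, a forkhead transcription factor gene, had 7 each. The 7 sites of Raf all lay in its second intron, 5 of them within 8596 bp of the gene's 5′ end, and the one nearest the 5′ end was the strongest at 439.6, against 109 to 208 for the others. The 7 sites of CHES-1-like lay in its first intron and had 79.0 to 233. Next came simj (a subunit of the NuRD chromatin remodelling complex), shn (a zinc finger protein of Dpp signalling), CG1677 and sbb (a transcriptional corepressor) with 6 each. Of the hosts with 5, ush, Tlk and NFAT (a calcium-responsive type of transcription factor) had the highest summed signal. Of these 10 hosts, 6 were on X (Hr4, Raf, CHES-1-like, CG1677, Tlk and NFAT). Over all members, 27.0% lay on X, which held 19.3% of the eligible intronic DNA. The 10 hosts were picked from the same members, so their count on X is not separate from the density given above.

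**Figure D3:**
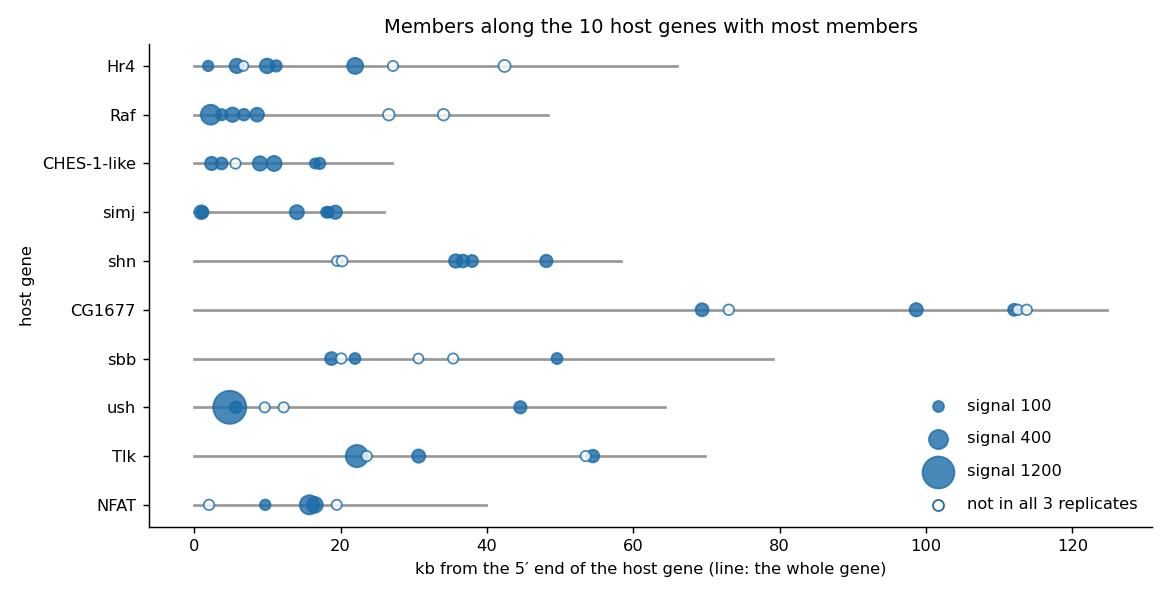
Members along the 10 host genes with most members, in kb from the 5′ end of the gene (grey line, the whole gene), with the area of a circle growing with its signal value. Filled circles were among the strongest peaks of all 3 replicates and open circles were not. The strongest site of Raf lies 2263 bp and that of ush 4859 bp from the 5′ end, while those of CG1677 lie 69400 bp and more from it.

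Neighbouring members in 1 host were a median of 4634 bp apart, with a range of 199 to 104955 bp. Of 222 neighbouring pairs, 170 (76.6%) shared an intron and 39 (17.6%) were less than 1000 bp apart. When members closer than 1000 bp were counted as 1, the number of hosts with 2 or more was 117. Such close pairs may share fragments, which were 200 to 800 bp long according to the labels.

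Hosts of members had a bound promoter more often than other genes with intronic DNA. An IDR summit lay within 500 bp of a TSS of 178 of 507 coding hosts, 35.1% (31.1 to 39.4%), against 1502 of 8517 coding genes with eligible intronic DNA but no member, 17.6% (16.8 to 18.5%). The share was 32.0% for hosts of 1 member, 44.2% for hosts of 2 and 44.2% for hosts of 3 or more. With IDR peaks kept without replicates 1, 2 and 3 in turn, 27.1%, 25.4% and 25.1% of hosts had a bound promoter, and the ratio to the other genes was 2.09, 2.14 and 1.96, against 1.99 with all peaks. Hosts were above the other genes at each length of eligible intronic DNA, with 31.6% against 18.1% under 1000 bp, 30.2% against 19.0% at 1000 to 4999 bp, 38.8% against 14.8% at 5000 to 19999 bp, 36.7% against 14.9% at 20000 to 49999 bp and 32.4% against 9.68% at 50000 bp or more. The intervals overlapped in the shortest class, which held 19 hosts. A summit near any start site of a gene counted, so genes with more start sites had more places to be called bound. The number of start sites was not compared between hosts and other genes. Among the 12 strongest members, the host promoter was bound for ush, CG11050, Lk6, Adf1, CG32486, Reph and LPCAT and not for CG32772, CG9663, Tlk, HmgZ and Raf.

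Genes were also grouped by pathway and tissue, and hosting was set beside the 5.62% and the 14.0 members per Mb (13.0 to 15.0) of all protein-coding genes. The listed genes often have long introns, and neither measure removes length. The share of hosting genes grew with eligible length, while the density was 12.7 members per Mb for genes under 1000 bp, 32.0 for 1000 to 4999 bp, 20.6 for 5000 to 19999 bp, 13.5 for 20000 to 49999 bp and 7.20 for 50000 bp or more. Lists of different length are therefore given with the median eligible DNA of their genes and were not tested against each other or against all genes. In EGFR and FGF signalling, 9 of 21 genes with eligible DNA (median 11444 bp) hosted 18 members, 48.9 per Mb (29.0 to 77.3). They included Raf, drk (an adaptor between receptor and Ras, 1 member, signal value 254) and aos (a secreted inhibitor of the EGF receptor, 1 member, 226). In Wnt, Hedgehog and BMP signalling, 8 of 22 genes (median 10410 bp) hosted 16 members, 34.7 per Mb (19.8 to 56.4), among them Mad, a Smad of the BMP pathway, with 1 member at 246, fz, a Wnt receptor gene, with 2 members, and shn with 6. In Notch signalling 3 of 11 genes (median 15898 bp) hosted 6 members, 25.5 per Mb (9.35 to 55.4), with 4 in mam, a coactivator of Notch, and 1 each in N, the receptor gene, and neur, an E3 ligase for its ligands.

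Genes of chromatin regulators and nuclear receptors were also among the hosts. Of 19 Polycomb and trithorax genes (median 787 bp), 5 hosted 10 members in 0.0994 Mb of eligible DNA, 101 per Mb (48.3 to 185). Trl, which encodes GAGA factor, had 2 members with a highest signal value of 409, trx, a histone methyltransferase gene, had 3 with a highest value of 226, and Psc, a Polycomb repressive complex gene, had 1 at 146. Nuclear receptors hosted 15 members in 5 of 18 genes (median 14123 bp), 37.0 per Mb (20.7 to 61.0), of which 8 were in Hr4, 3 in Eip75B and 1 in EcR, the ecdysone receptor gene, with 272. The blood and GATA cofactor list had 2 hosts of 11 (median 9904 bp), ush with 5 members and jumu with 2, or 55.1 per Mb (22.1 to 113).

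Of the ETS family, 2 of 8 genes (median 11872 bp) hosted 5 members, 33.4 per Mb (10.9 to 78.0). The genes were aop, the repressor at the end of the EGFR pathway, with 3 members and a highest signal value of 211, and pnt, the activator that acts against it at shared sites, with 2 members and 118. Both also had a bound promoter. Ets65A itself hosted none. Among the Hox genes, 1 of 8 (median 24002 bp) hosted a member, 4.55 per Mb (0.115 to 25.4). It was Ubx with 100.4, and no Hox gene hosted one in the members kept without replicate 2 or without replicate 3.

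Genes of differentiated neurons and of their wiring were among the lists with long introns. In the pan-neuronal and synaptic list 2 of 19 genes (median 22794 bp) hosted 1 member each, 4.34 per Mb (0.526 to 15.7): elav, the neuronal RNA-binding protein gene, with 159, and dlg1, a scaffold gene, with 89.1. Ion channel genes hosted 3 members in 3 of 27 genes (median 34851 bp), 3.56 per Mb (0.734 to 10.4), the strongest in the potassium channel gene KCNQ at 250.4, the others in Ca-alpha1T and Ih. The interval of the pan-neuronal list covers the 14.0 per Mb of all genes, and that of the ion channels lies below it but covers the 7.20 per Mb of the genes with most intronic DNA. When any one replicate was left out, 1 ion channel gene hosted members. Axon guidance genes hosted 15 in 10 of 36 genes (median 23240 bp), 13.7 per Mb (7.69 to 22.7), led by side, ena and sli with highest values of 137, 121 and 119. Without replicates 1, 2 and 3 in turn 6, 5 and 5 of them hosted members. Neuroblast and neural fate genes had 4 in 2 of 10 (median 20348 bp), 21.5 per Mb (5.87 to 55.1), namely brat with 3 and grh with 1. Glial genes had 3 in 2 of 14 (median 2456 bp), 25.9 per Mb (5.34 to 75.7). The hosts were pnt, which is also in the ETS list, and nkd.

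In the remaining lists, mesoderm and muscle genes hosted 11 members in 7 of 24 genes (median 13322 bp), 16.9 per Mb (8.42 to 30.2), with kirre, an adhesion gene of myoblast fusion, at 249, zfh1 at 212 and rols at 113. The hosting genes of this list numbered 2 without replicate 1 and 2 without replicate 2. Cell adhesion genes hosted 10 in 5 of 25 (median 33092 bp), 7.31 per Mb (3.51 to 13.4), among them kirre with 4, mew with 3 and Fas3 with 1. The tracheal list had 1 host of 11 (median 6074 bp), rib with 1 member at 163, or 7.78 per Mb (0.197 to 43.3). None of the 15 segmentation genes with eligible DNA (median 1053 bp) hosted a member. They held 0.0518 Mb of such DNA, for which a count of 0 allows up to 71.2 per Mb (exact Poisson).

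Of the 742 members, 427 (57.5%, 54.0 to 61.1%) overlapped one of the 2780 strongest peaks in all 3 replicates, against 1006 of 1642 promoter peaks (61.3%) and 168 of 313 intergenic peaks (53.7%). The share over all IDR peaks was 59.4%, so the members' share was near that background. Support followed signal: 346 of the 371 stronger members (93.3%) and 81 of the 371 weaker ones (21.8%) were among the strongest of all 3. The signal of the IDR list comes from these 3 replicates together, so signal and support are not independent. This split is therefore a description. At the other end, 6 members were in none of the 3 strongest lists, the highest of them in siz at 84.1. In replicate 1, 13 members overlapped no peak at all, the highest of them in osp at 116, while all 742 overlapped a peak in replicates 2 and 3. The rank correlation of signal between replicates over members was 0.664 for replicates 1 and 2 (n = 729), 0.540 for 1 and 3 (n = 729) and 0.622 for 2 and 3 (n = 742). These are across peaks of 1 list, chosen for being shared, and are a description.

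Replicate by replicate, 76.1%, 85.8% and 80.1% of members were among the strongest peaks of replicates 1, 2 and 3, against 78.7%, 87.6% and 82.9% of promoter peaks. The difference was -2.39 percentage points on average (SD 0.598) and negative in all 3. Their median signal values were 27.7, 44.3 and 38.3, against 32.3, 46.5 and 40.4 for promoter peaks, a mean log2 difference of -0.12 (SD 0.09). Intergenic peaks had 74.8%, 85.9% and 76.4% and median signal values of 28.1, 42.6 and 38.0, from which members differed by 1.66 points (SD 1.91) and 0.02 on the log2 scale (SD 0.04), with replicates on both sides of 0. None of the 4 comparisons passed the two-sided exact sign-flip permutation test over 3 replicates, which cannot go below p = 0.250. The p-values were 0.250 against promoter peaks for both measures, and 0.500 for support and 0.750 for signal against intergenic peaks (0.500 to 0.750 adjusted over the 4).

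**Figure D4:**
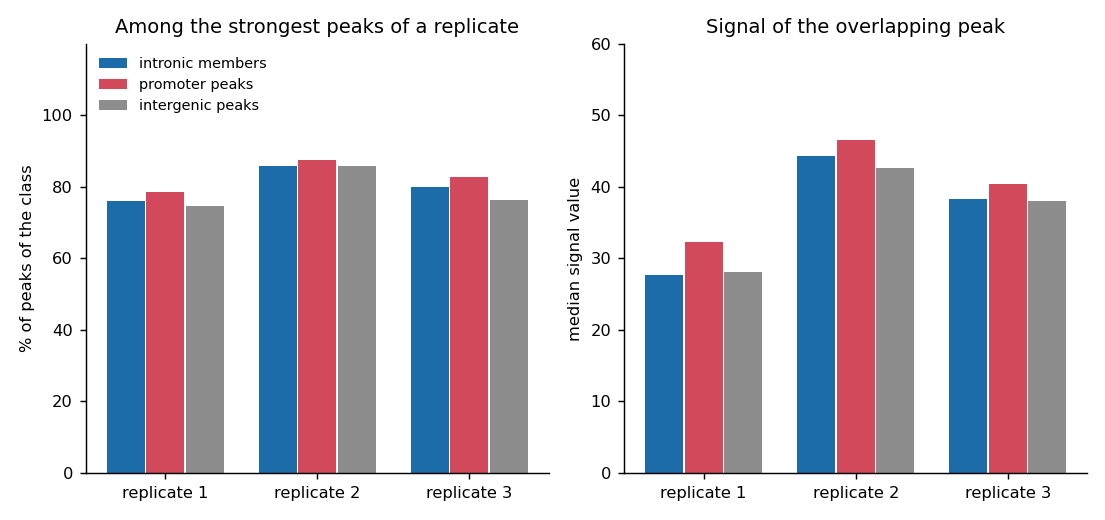
Share of peaks among the 2780 strongest of each replicate (left) and median signal value of the overlapping replicate peak (right) for intronic members, promoter peaks and intergenic peaks. Bars are single values per replicate with no error, and members lie below promoter peaks in each replicate, at 76.1%, 85.8% and 80.1%.

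The DNA under member summits was poorer in G and C than the DNA beside it. The central 201 bp had a mean GC content of 36.5% (SD 5.59 over members), against 42.2% (SD 8.19) in 1 flank window per peak centred 500 bp away. The centre was the lower in 536 of 742 members (72.2%), near the 72.0% of all IDR peaks. That share was 73.6% for promoter peaks and 67.1% for intergenic peaks. All 239812 tiles of 201 bp that lie wholly in eligible intronic DNA had a mean of 40.1%. The centre and flank of promoter peaks had 38.4% and 45.9%, and those of intergenic peaks 37.5% and 41.8%. In the intronic peaks among the strongest of replicates 1, 2 and 3, placed at their own summits, the centre had 38.0%, 36.3% and 36.8%, against 41.7%, 41.7% and 41.9% in the flank. Annotated exons, which are GC-rich in flies, touched 127 flank windows (17.1%) and 24 central windows (3.23%). They made up a mean of 12.5% of flank bases and 0.614% of central bases. Motif and 6-mer results are therefore also given for the 604 members with no exon base in either window. GC content was not computed for these 604, and the part of exon bases in the GC difference was not tested.

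The letters of the ETS site were not more frequent at member summits. The core CCGGAA, on either strand, occurred in 14 central windows (1.89%) and 38 flanks (5.12%), a ratio of 0.368 (exact McNemar test, adjusted p = 0.00336 over 72 tests of 18 motifs in 4 sets of peaks). It occurred in 4.76% of all intronic tiles. In the 604 members free of exon bases the ratio was 0.500 and the test was not passed (exact adjusted p = 0.308), and with the flank on the other side of each peak it was 0.483 (exact adjusted p = 0.0708). The longer letters CCGGAAGT occurred in 0 central windows and 3 flanks (exact adjusted p = 0.391), and the looser form CMGGAAR, where M is A or C and R is A or G, in 41 and 53 windows (5.53% and 7.14%, exact adjusted p = 0.385), against 8.79% of tiles. In the intronic peaks of replicates 1, 2 and 3 the core's ratio of centre to flank was 0.667, 0.469 and 0.724.

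Of the 18 motifs, 3 were more frequent at member summits and 2 less, where 25.0% and 16.7% of all 72 tests were called in those directions. The letters TATAAA of a TATA box occurred in 32.2% of central windows and 23.2% of flanks (exact adjusted p = 4.84e-04, against 24.1% of tiles). The pattern of Mef2, a muscle transcription factor, had 8.63% and 4.58% (exact adjusted p = 0.00776), and the Sox pattern WTTGTW, where W is A or T, had 70.8% and 64.0% (exact adjusted p = 0.0144). These 3 patterns consist mostly of A and T, and only TATAAA passed in the members free of exon bases (exact adjusted p = 0.0462, against 0.142 for Mef2 and 0.608 for Sox). The E-box CAGCTG was the other motif with a lower share, 6.74% against 10.9% (exact adjusted p = 0.0121), and it too was not called without exon bases (exact adjusted p = 0.142). With the flank on the other side of each peak, TATAAA alone of these 5 motifs passed (exact adjusted p = 7.73e-09). In the members kept without replicate 3 the Mef2 pattern was not called (exact adjusted p = 0.0715), without replicate 2 CAGCTG was not (exact adjusted p = 0.0623), and the Sox pattern was not called without any one replicate (exact adjusted p = 0.405, 0.549 and 0.236 without replicates 1, 2 and 3). Over 9 alternative settings, the call was lost under 7 for CAGCTG, 7 for the Sox pattern, 4 for Mef2, 3 for CCGGAA and 0 for TATAAA. The other 11 motifs did not pass. They included the GATA pattern WGATAAR in 19.7% and 16.2% of windows (exact adjusted p = 0.180), GAGAG of GAGA factor in 26.1% and 31.8% (exact adjusted p = 0.0525), TAATTA of homeodomain proteins in 15.4% and 11.6% (exact adjusted p = 0.0882) and TATCGATA, the promoter element DRE, in 2 windows of either kind. Some of the 11 passed under other settings. GATA was more frequent at summits with the flank on the other side (ratio 1.33, exact adjusted p = 0.0426) and with flanks 1000 bp away (1.39, exact adjusted p = 0.0177), and TAATTA was with 50 bp on each side of the summit (1.61, exact adjusted p = 0.0344). GAGAG was less frequent with 50 bp on each side (0.540, exact adjusted p = 3.19e-05), the Runx pattern with the other flank (0.623, exact adjusted p = 0.0423) and CACACA with both of these settings and with flanks 1000 bp away (0.595 to 0.744, exact adjusted p = 1.34e-04 to 0.0269).

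Among all 2080 6-mers, with a word and its reverse complement counted as one, 242 (11.6%) were more frequent and 265 (12.7%) less frequent at member summits. In the members kept without replicates 1, 2 and 3 in turn (those among the strongest peaks of both other replicates, 520, 460 and 507 members), 167, 110 and 135 were more frequent and 165, 94 and 121 less. Base composition moved with the calls. Of the 720 6-mers with 2 or fewer G or C letters, 215 were called more frequent and 6 less, while of the 720 with 4 or more, 5 were called more frequent and 210 less. Its part in the calls was not tested. The 5 named words of lowest ratio were GC-rich and had ratios from 0.0909 to 0.235. CTCCTC occurred in 18 central windows and 77 flanks, CCTTCG in 14 and 65, CCTCCG in 8 and 40 and CACCGG in 8 and 34. CGCGCG, in 1 central window and 11 flanks, was not called without any one replicate (exact adjusted p = 0.178 to 0.302), and CACCGG was not called without replicate 2 (exact adjusted p = 0.145).

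Of the 10 named words of highest ratio, 6 had 3 G or C letters, a class in which 22 of 640 words were called more frequent, 3 had 2 and AATAGT had 1. The word with the smallest p was ACAGTG, in 199 central windows (26.8%) and 71 flanks (9.57%), a ratio of 2.80 (exact adjusted p = 3.09e-14), and in 7.40% of intronic tiles. In the 604 members free of exon bases its ratio was 3.15 (exact adjusted p = 4.62e-14), and in the intronic peaks of replicates 1, 2 and 3 it was 2.29, 2.90 and 2.75. ACTGTA occurred in 20.2% and 6.60% of windows, with 6.87% of tiles, AATAGT in 19.7% and 6.33%, with 11.3% of tiles, and ACACTG in 20.4% and 7.68%, with 7.17% of tiles. Their exact adjusted p ranged from 2.69e-11 to 5.92e-10. Of the remaining words, AGGGTA occurred in 66 central windows and 21 flanks, GTACAC in 89 and 31, GTTACA in 77 and 28, AGGTAC in 42 and 15, ACCCTA in 41 and 15 and AGTACT in 30 and 11. Their exact adjusted p ranged from 5.04e-06 to 0.0240. ACAGTG and the 3 words given directly after it were called under each of 9 alternative settings, while AGTACT was not called under 6 of them. Without replicate 3 the call of AGTACT was lost (exact adjusted p = 0.0554), as were those of AGGTAC (0.0661) and ACCCTA (0.101), the last also without replicate 2 (exact adjusted p = 0.0918).

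Some of these words are parts of one another's sites. The letters TACAGTG, which hold both ACTGTA (read as TACAGT) and ACAGTG, occurred in 87 members (11.7%), and ACAGTGT, which joins ACAGTG and ACACTG (read as CAGTGT), in 33 (4.45%). Over the 236 sites of ACAGTG with flanking letters inside the window, the base just before was T in 39.4% and C in 39.0%, and the base just after was G in 47.5%. Of all members, 541 (72.9%) held at least 1 of the 10 words, 294 (39.6%) at least 2 and 116 (15.6%) at least 3, while 201 (27.1%) held none. Since the words were chosen on these windows, the counts are a description. They were not made for flanks or other peaks, so no background share stands beside them. Single words occurred in 1.48% (AGTACT) to 9.57% (ACAGTG) of the members' flanks. The median signal was 116 for members with ACAGTG, against 106 for those without, and 104 for members with none of the 10 words, also a description with no test.

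Several of the words were more frequent beside the summit than at it. ACAGTG had 79 sites within 49 bp of member summits, 173 at 50 to 99 bp, 147 over the wider span of 100 to 199 bp and 75 at 400 to 499 bp. ACTGTA (67 and 116 sites in the first and second of these spans) and ACACTG (62 and 110) lay in the same way, whereas AATAGT (93 and 73) and GTTACA (43 and 39) had more sites within 49 bp, and AGTACT had 16 in each span. Counted per 50 bp, the 10 words had 0.466 and 0.454 sites per member in the bins that start 100 bp before and 50 bp after the summit, and 0.356 and 0.276 in the bins on each side of the summit itself, against 0.112 to 0.158 in bins 250 bp and farther away. Promoter peaks had 0.315 and 0.311 in the bins next to the summit, their highest. Intergenic peaks had 0.291 and 0.275 in those bins. In the bins that start 100 bp before and 50 bp after the summit they had 0.291 and 0.393, the latter their highest. GC content was lowest in the members' bins next to the summit, 34.9% and 34.5%.

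**Figure D5:**
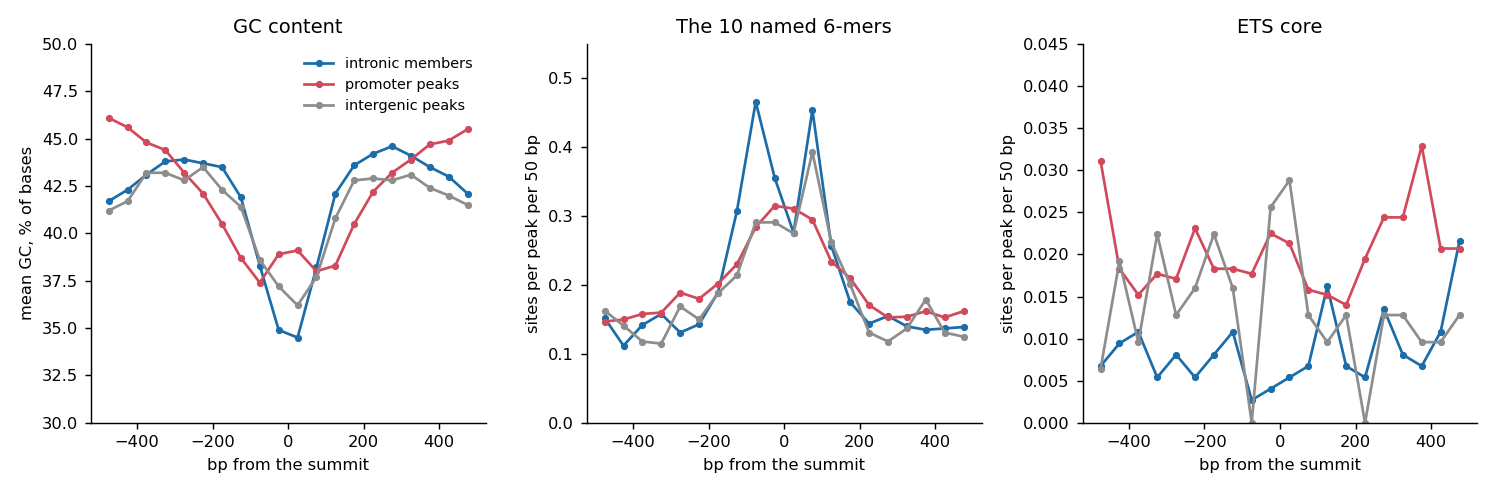
Mean GC content, sites of the 10 named 6-mers and sites of the ETS core per peak, in bins of 50 bp around the summits of intronic members (n = 742), promoter peaks (n = 1642) and intergenic peaks (n = 313). The 6-mers of members peak on both sides of the summit at 0.466 and 0.454 sites per bin, GC content dips to 34.5% at the summit, and the members' ETS core stands at 0.00404 and 0.00539 sites per peak in the bins next to the summit, against 0.00270 to 0.0216 elsewhere.

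The same words were counted at the other peaks. ACAGTG occurred in 18.3% of central windows and 8.77% of flanks of promoter peaks, and in 16.0% and 9.27% of those of intergenic peaks. AGGTAC and GTACAC had ratios of 1.03 and 1.15 at promoter peaks, against 2.80 and 2.87 at members. At intergenic peaks their ratios were 1.57 and 3.33, so that of GTACAC was above the members' value. ACACTG had the higher ratio at promoter peaks, 3.28, against 2.65 at members and 2.62 at intergenic peaks. The words were picked for their ratio at members, so these differences between the classes were not tested.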

How the data were processed

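Peak lists of 3 biological replicates in the dm6 build were used. Per the file headers and labels, the authors deposited a list per replicate, a list of the pooled replicates and an IDR list. Which aligner and caller were run, and the IDR cutoff, is not given in the sources used here. The deposited signal value is a score of unstated scale, and the deposited q-value is given as -log10 q with a ceiling. Peak lists hold no read counts, so depth is unknown, and all intervals cover counting error over peaks only. Replicate scores are not on a common scale.

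Peaks were placed by summit on Ensembl 115 genes (transposable elements left out), with sequence from the RefSeq copy of the dm6 assembly, on 6 arms. 18 motifs and all 6-mers were compared between the central 201 bp and a flank centred 500 bp to the left or right, by a random draw (seed 65), with the exact McNemar test, two-sided, and Benjamini-Hochberg adjustment at 0.05. Classes were compared over replicates by the exact sign-flip permutation test. Peaks, and several members of 1 gene, are not replicates of the embryos. Scripts ran in Python 3.11.15 with scipy 1.17.1 and were tested on simulated data.

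Named in the text were the 12 members of highest signal, the 10 hosts with most members (ties by summed signal), every member host in the ETS and Hox lists, up to 3 hosts by highest signal in each other list, 10 6-mers of highest and 5 of lowest ratio among those called, and the sequences of the 5 strongest members outside 1 arm and of the strongest member in the 3 hosts with most members. The sequences from these 3 hosts, and the members, hosts or words singled out for an extreme value (such as the highest member absent from replicate 1), were added after values were seen. The members and lists were chosen with earlier results of these data known. Of the genes listed in 17 lists, 2 symbols were not matched. The alternatives changed the promoter distance, start sites, summit, signal threshold, overlap, transcripts, hosts, windows and flanks, or left out a replicate. Windows free of exon bases were chosen after seeing the data.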

Additional observations from a re-analysis of the deposited data

How the results depend on the processing

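The density ratio of intronic to intergenic peaks was 1.49 to 1.76 under the alternatives and that of X to chromosomes 2 and 3 was 1.5 to 1.67, all within the counting interval of the main value. Promoter distances of 250 and 1000 bp gave 27.4% and 40.7% of hosts with a bound promoter, and 1000 bp gave 53.4% of members in a first intron. Numbering by any transcript gave 73.0% and by the transcript with most exons 48.1%. The 1390 peaks of highest signal left 356 members in 286 hosts, 44 of them with 2 or more and 21.4% with a bound promoter. Leaving out 1 replicate gave 460 to 520 members, 356 to 399 hosts, 64 to 78 with 2 or more, and 25.1 to 27.1% with a bound promoter.

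The share of members in all strongest lists was 78.8% for lists of 5000, 98.2% for whole lists and 62.0 to 70.1% without 1 replicate. The difference in support turned to 0.573 points against promoter peaks with whole lists, and against intergenic peaks to -0.871 with lists of 5000 and -0.0515 with whole lists. The log2 signal difference from intergenic peaks turned to -0.04 and -0.01 with promoters of 250 and 1000 bp and was -0.01 to 0.04 without 1 replicate.

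More frequent and less frequent 6-mers numbered 161 and 189 with 50 bp on each side of the summit, 129 and 81 with 200 bp, 143 and 148 with flanks 1000 bp away, 69 and 57 in the stronger members, 149 and 138 in windows free of exon bases, and 110 to 167 and 94 to 165 without 1 replicate. Of the 242 and 265 called, 145 and 132 were among those free of exon bases, and 177 and 151 among the 238 and 248 called with the other flank side. Motifs called less frequent numbered 1 with 200 bp on each side, 0 in the stronger members and 0 in exon-free windows, where 1 was more frequent, and 1 to 2 in either direction without 1 replicate. The cause of these changes was not tested, except that fewer members entered the settings that leave out peaks. Of 136 recomputed counts of hosting genes per list, 117 stayed within 1.5 times. The samples form 1 group, so no replicate block between groups could be fitted. The class comparisons are made within each replicate.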
